A study of Mus musculus with 6 samples.

Results

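Semaphorins, plexins, neuropilins, ephrins, Eph receptors, Slits, Robos, netrins and Unc5 receptors make up the classical axon guidance families, and 60 of their genes were found among the 24501 genes measured in mouse liver. They were taken by gene symbol from the protein-coding rows of the authors' table of normalised read counts: 20 semaphorins, 9 plexins, 2 neuropilins, 7 ephrins, 10 Eph receptors, 3 Slits, 4 Robos, 2 netrins and 3 Unc5 receptors. By role, 32 are ligands and 28 are receptors or coreceptors. As a set they were selected on their normalised read counts in Control libraries against those labelled Gata4LKO, the comparison described here, so differences between these groups are given as a description and support nothing further.

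Guidance ligands tell a cell where to go. Semaphorins bind plexins, with neuropilins as coreceptors for most secreted semaphorins, and plexins act on small GTPases that reshape the cytoskeleton. Ephrins sit on the surface of 1 cell and bind Eph receptor kinases on the next, Slits are secreted and bind Robos, and netrins bind DCC, neogenin and Unc5 receptors. Outside the nervous system the same families act in blood vessels and epithelia, and in liver several of them are best known from sinusoidal endothelial and stellate cells.

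Captured mRNA was sequenced from liver tissue of 6 male C57BL/6J mice, 3 in each group, every one homozygous for a floxed Gata4 allele. Control mice had been given an adeno-associated virus of serotype 8 (AAV8) with no insert, and mice of the group labelled Gata4LKO had been given AAV8-Tbg-Cre, in which the Tbg promoter drives Cre recombinase in hepatocytes, so that other liver cells keep the gene. The virus was injected at 8 weeks of age, and all mice were 11 weeks old, on a Western diet for 3 weeks, and fasted for 6 hours. One protocol label gives euthanasia 7 days after injection, which does not match these ages, and the series text also speaks of refed animals although the sample labels give only fasting. Each library came from 1 mouse.

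The libraries held 33274223 to 37390345 reads assigned to genes. Gata4 itself, a zinc finger transcription factor (mm10 chromosome 14, minus strand, 63198922 to 63271692), had normalised read counts of 704, 637 and 546 in control livers against 867, 848 and 895 in those labelled Gata4LKO, so its count showed no loss there (log2 fold change 0.47, limma adjusted p = 0.0641). The floxed exons are not named in the labels, and a count over the whole gene does not separate them from the rest. Every direction below therefore rests on the labels. Marker genes of hepatocytes dominated all 6 libraries: their summed level was 1500330 to 1901020 normalised reads per kilobase of exon in control livers against 1047990 to 1221300 in the others. Alb held the largest part of this sum, at 1045130 ± 227746 in control livers against 684607 ± 74950 (SD, n = 3 each, limma adjusted p = 0.434).

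The guidance genes spanned a wide range of levels. To compare genes, normalised reads were divided by the length of the gene's exons in kilobases. In the controls 10 members lay over 100 normalised reads per kilobase, 18 lay from 10 to 100 and 32 lay under 10. Of the 60 members, 45 had a mean of at least 10 normalised reads over the 6 libraries and were tested, and the other 15 had means from 0.669 to 9.26 and at most 18 reads in any library. All 3 Slits were among these 15, together with 5 semaphorins, 3 ephrins, 2 Eph receptors, 1 plexin and 1 Unc5 receptor. None of the 15 was at 0 reads in every library, and 4 of them were at 0 in at least 1.

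Sema4g, a transmembrane class 4 semaphorin, had the highest level of the 60 members, 2938 ± 233 normalised reads per kilobase in the controls (SD, n = 3). Second was Plxnb2, a plexin that in mouse cerebellum serves as a receptor of Sema4g, at 1296 ± 40.6. Sema4a at 545 ± 24.6, the membrane-anchored ephrin Efna1 at 496 ± 131 and the Eph receptor kinase Epha1 at 458 ± 8.21 came next. The control values of Sema4g, of Plxnb2, of the trio Sema4a, Efna1 and Epha1, and of the genes below them did not overlap, so those 3 steps were larger than the spread between mice, and within the trio Sema4a stood clear of Epha1 while Efna1 overlapped both. With the longest transcript in place of the merged exons as length, Sema4g came to 5589 ± 444, Plxnb2 to 1540.4 ± 48.3 and Sema4a to 919.9 ± 41.4, and Nrp1 moved up to 462 ± 95.9, where its controls (401 to 572) overlapped those of Efna1 and Epha1, so the step below the trio rests on the choice of length. Plxnb1, the Sema4D receptor, followed at 225 ± 87.2, then Ephb4, a receptor known from venous endothelium, at 216 ± 30.1, the neuropilin Nrp1 at 172 ± 35.7 and the ephrin Efnb1 at 156 ± 5.07. Neighbours in this second run overlapped with each other, and Efnb1 stood clear of the next member, Plxnd1, at 105 ± 22.4. From Plxnd1 downwards just 1 step between neighbours was free of overlap, below Sema3f at 37.6 ± 3.36, so neighbours in the remaining order were mostly not resolved with 3 mice.

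**Figure D1:**
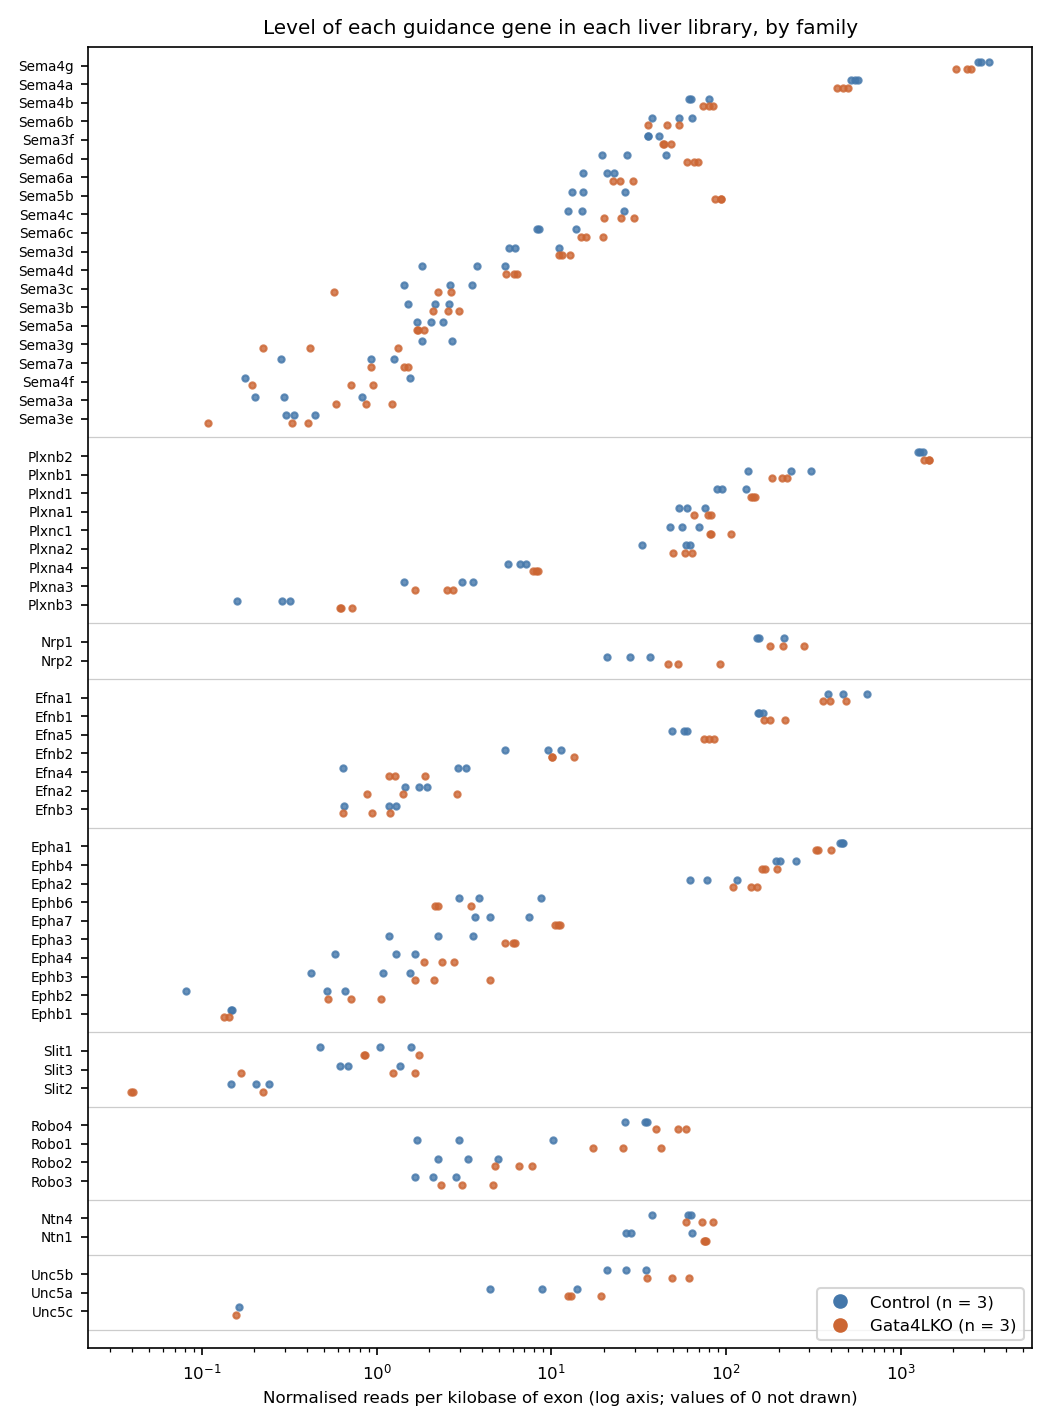
Normalised reads per kilobase of exon (log axis) for each of the 60 guidance genes, by family, with 1 point per library in blue for Control and orange for the group labelled Gata4LKO. Sema4g and Plxnb2 lie farthest to the right, and every point of the 3 Slits lies under 10.

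Within most families 1 gene carried the larger share of the summed level. Sema4g made up 78.1% ± 2.33 (SD, n = 3) of the semaphorin sum per kilobase in the controls, and Sema4a a further 14.6%. Plxnb2 made up 72.0% of the plexin sum, Nrp1 85.8% of the neuropilins, Efna1 68.1% of the ephrins, Epha1 59.3% of the Eph receptors, Robo4 75.1% of the Robos and Unc5b 74.7% of the Unc5 receptors. In the libraries labelled Gata4LKO the same genes led their families, with 72.4%, 70.9%, 77.3%, 59.0%, 51.5%, 57.7% and 75.9% in that order. All shares use merged exons as length, and the lead of Robo4 in these libraries rests on that choice. Robo1 has 16511 bases of merged exons and 7563 in its longest transcript, against 5302 and 4952 for Robo4. The netrins were more evenly divided, and Ntn4 took 58.8% ± 9.97 in the controls against 48.5% ± 4.16 (SD, n = 3 each) in the libraries labelled Gata4LKO.

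Of the 45 tested members 1, Sema5b, passed the threshold in the comparison of the groups (limma, Benjamini-Hochberg adjusted p under 0.05 over 14385 genes), where 2.06% of all genes tested passed, 1.13% higher and 0.932% lower. An unadjusted limma p under 0.05 was found for 22 of the 45 members, a larger share than the 3227 of all 14385 genes tested (22.4%). EdgeR on the recovered reads called Sema5b alone, where it called 1.97% of all genes. The groups did not overlap for 20 members (44.4%) that were higher in the libraries labelled Gata4LKO, where 15.0% of all genes tested did so. They did not overlap for 3 (6.67%) that were lower, where 13.4% did so. For the other 22 of the 45 members the groups overlapped, as they did for 10312 of all 14385 genes tested. Over all genes 28.3% did not overlap. The median log2 fold change was 0.44 over the 45 members and -0.0083 over all genes tested, and 34 members had a positive value and 11 a negative one, where 48.5% of all genes were positive. The summed levels of endothelial, stellate and Kupffer cell markers were likewise higher in every library labelled Gata4LKO, as given further on. The members' values ran from -0.80 for Ephb6 to 2.82 for Robo1. Ephb6 rested on low counts, 8 to 32 reads in a library, and its groups overlapped (limma adjusted p = 0.348). The authors' deposited table calls 13 of the 45 members at an adjusted p under 0.05, 11 higher and 2 lower, where it calls 9.41% of the genes for which it gives an adjusted p. The submitters name DESeq2, so a DESeq2 run on the same reads is not independent of their calls. DESeq2 on the reads recovered from the normalised values called the same 13, where 9.48% of all genes were called: Sema5b, Sema6d, Plxnc1, Nrp2, Efna5, Epha3, Epha7, Robo1, Robo4, Ntn1 and Unc5b higher, and Sema4g and Epha1 lower. Of these Sema5b was the one that also passed with limma, whose adjusted p-values are given below.

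**Figure D2:**
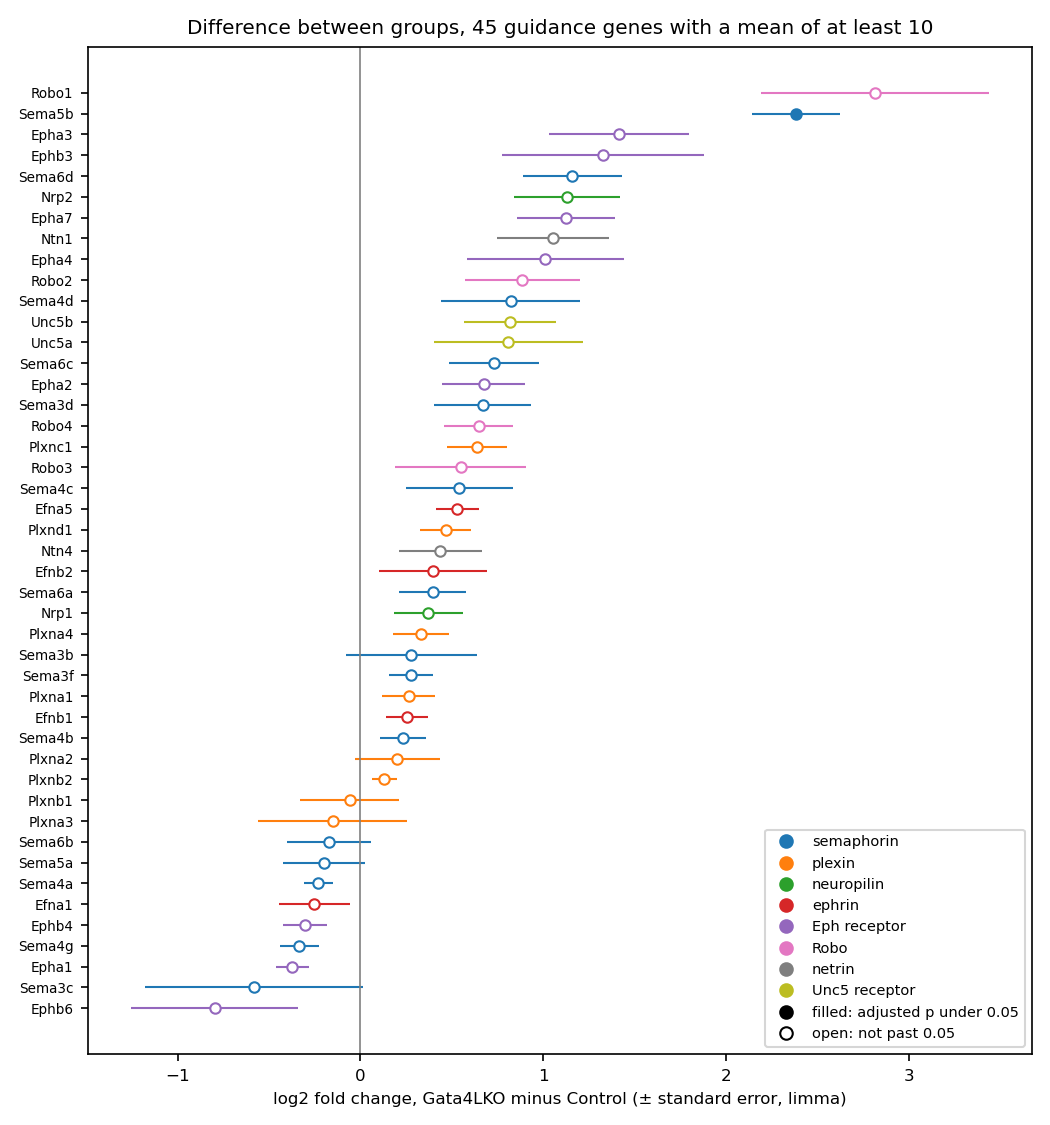
Log2 fold change (x axis, libraries labelled Gata4LKO minus Control) with its limma standard error for the 45 tested guidance genes, ordered by value and coloured by family. The single filled point is Sema5b at 2.38, and 34 of the 45 points lie to the right of 0.

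Sema5b encodes a transmembrane class 5 semaphorin with thrombospondin repeats, known in mouse retina as a repellent for growing neurites (chromosome 16, 35541145 to 35664732, plus strand, mm10). The normalised read counts came to 187, 108 and 92.5 in control livers against 664, 613 and 666 in those labelled Gata4LKO. The groups were far apart, and the 3 libraries labelled Gata4LKO agreed closely. Sema5b rose from 129 ± 50.8 to 648 ± 29.8 (SD, n = 3 each), and the fitted log2 fold change on the log2(value + 1) scale was 2.38 ± 0.24 (SE, limma adjusted p = 0.0101), or 5.22-fold. Per kilobase the level was 18.3 ± 7.18 in control livers and 91.5 ± 4.21 in those labelled Gata4LKO, and its share of the semaphorin sum was 0.492% and 2.86%. The log2 fold change stayed between 2.18 and 2.68 over 17 alternative settings and passed in 15 of them. The authors' deposited table gives Sema5b 2.33 ± 0.24 (SE) on the log2 scale and an adjusted p of 1.77e-19. The call was lost with limma's variance untied from expression level (adjusted p = 0.0539) or without Gata4LKO replicate 3 (adjusted p = 0.0586).

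Sema5a, the only other class 5 semaphorin of mice, had normalised read counts of 31.9, 44.7 and 38.3 in control livers against 31.7, 32.1 and 35.0 in those labelled Gata4LKO. These groups overlapped, with a fold change of -0.20 on the log2 scale (limma adjusted p = 0.656). Plxna1, a receptor of class 5 semaphorins in mouse retina, had 487, 688 and 544 against 712, 597 and 742, which also overlapped (log2 fold change 0.26). Its exons share 970 bases with the antisense gene Gm26811, which had a mean of 0.313 normalised reads. Plxna3, the second such receptor, was low, with 11.3, 28.1 and 24.3 against 21.5, 13.0 and 19.8.

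The promoter of Sema5b is printed here because it belongs to the one member past the threshold, and those of Sema6d and Unc5b because they are the members among the 10 largest separated differences whose window holds a GATA hexamer. Each window runs from 250 bases before to 50 bases after a RefSeq gene start (GRCm38.p6), 5′ to 3′ on the strand of the gene, and capitals mark the hexamer.
Sema5b, chr16:35541112-35541411, plus strand: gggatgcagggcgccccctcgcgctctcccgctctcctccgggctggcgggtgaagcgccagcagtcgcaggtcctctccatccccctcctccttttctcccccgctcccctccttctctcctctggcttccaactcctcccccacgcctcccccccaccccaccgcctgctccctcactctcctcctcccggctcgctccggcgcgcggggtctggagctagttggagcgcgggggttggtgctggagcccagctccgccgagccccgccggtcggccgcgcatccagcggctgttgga
Sema6d, chr2:124653331-124653630, plus strand: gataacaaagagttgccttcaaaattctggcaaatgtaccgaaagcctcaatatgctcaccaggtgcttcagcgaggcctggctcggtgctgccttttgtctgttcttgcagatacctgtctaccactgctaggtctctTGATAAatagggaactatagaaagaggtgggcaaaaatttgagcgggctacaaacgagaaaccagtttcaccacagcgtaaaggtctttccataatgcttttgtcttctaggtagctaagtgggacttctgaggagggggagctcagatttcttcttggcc
Unc5b, chr10:60831532-60831831, minus strand: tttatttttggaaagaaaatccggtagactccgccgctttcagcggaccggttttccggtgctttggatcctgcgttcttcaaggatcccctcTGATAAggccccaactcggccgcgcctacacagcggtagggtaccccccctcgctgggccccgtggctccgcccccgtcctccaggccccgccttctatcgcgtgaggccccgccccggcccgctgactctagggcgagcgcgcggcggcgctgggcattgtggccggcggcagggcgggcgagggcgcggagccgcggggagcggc
GATA factors bind the core GATA flanked by A or T before and A or G after, so AGATAA with its variant AGATAG was searched, and likewise TGATAA with its variant TGATAG, on both strands, and a window counted once however many matches it held or however they overlapped. The Sema5b window held none of these hexamers and had 73.0% G and C with 27 CpG dinucleotides. In the Sema6d window, which lies inside the annotated gene at the downstream of its 2 listed starts, TGATAA began 111 bases before the start. In Unc5b it began 157 bases before. Windows were found for 52 of the 60 members, 67 in all, and 9 of them (13.4%) held a hexamer, where 29.8% of all 32851 windows did. The member windows were richer in G and C, with a median of 64.0% against 52.7% for all windows, and held a median of 18 CpG dinucleotides against 7. A match of letters is not a binding site, and the absence of one in these windows says nothing on binding elsewhere.

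Among the other semaphorins, Sema6d and Sema6c of the transmembrane class 6 were higher in every library labelled Gata4LKO, and in class 4 Sema4g and Sema4a were lower and Sema4d higher. Sema6d, whose receptor in chick heart is Plxna1, had normalised read counts of 288, 478 and 206 against 733, 628 and 691. Control replicate 2 was the highest control and still lay below the lowest library of the other group. The log2 fold change was 1.16 ± 0.27 (SE, limma adjusted p = 0.0716), and it passed without Control replicate 2 (1.48, adjusted p = 0.0145) and with library sums made equal (1.21, adjusted p = 0.0494), as well as with DESeq2 (1.08, adjusted p = 0.00186). The authors' deposited table gives Sema6d a log2 fold change of 1.08 with an adjusted p of 0.00127.

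Sema6c had 49.4, 82.1 and 50.4 normalised reads in the controls against 116.6, 87.3 and 93.5, separated by a small gap above Control replicate 2 (log2 fold change 0.73, limma adjusted p = 0.138). Sema4g had 23825, 24794 and 27709 against 21913, 20756 and 17876. The groups of Sema4g did not overlap, and the log2 fold change was -0.34 ± 0.11 (SE, limma adjusted p = 0.124). Sema4a had 3078, 2955 and 2813 against 2704, 2516 and 2328, also without overlap (log2 fold change -0.23, limma adjusted p = 0.139). Neither of these highly expressed semaphorins passed with limma, while Sema4g passed in the authors' deposited table (adjusted p = 0.0474) and with DESeq2 on the recovered reads (adjusted p = 0.0406). Sema4d, the ligand of Plxnb1, had 28.8, 41.6 and 14.0 against 49.1, 47.2 and 42.5, with a narrow gap above Control replicate 2 (log2 fold change 0.82, limma adjusted p = 0.254). Sema4b, the third by level, overlapped between groups, with 348, 449 and 354 against 478, 415 and 452. Over all 15 tested semaphorins 10 had a positive log2 fold change and 5 a negative one, and the groups did not overlap for 5 that were higher and 2 that were lower, where 15.0% and 13.4% of all genes tested did so.

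On the receptor side no plexin passed with limma or edgeR. An unadjusted limma p under 0.05 was found for 2 of 8 (Plxnc1 and Plxnd1), near the 22.4% of all genes tested that had one. DESeq2 called Plxnc1 alone of the 8, where it called 9.48% of all genes. Plxnc1, the receptor of the membrane-anchored Sema7a, had normalised read counts of 400.2, 581 and 467 in control livers against 674, 683 and 891 (log2 fold change 0.64, SE 0.16, limma adjusted p = 0.0836). The groups did not overlap. Its ligand Sema7a was under the filter, at 1 to 5 reads in a library. Plxnd1, the Sema3E receptor of endothelial cells, had 649, 952 and 691 against 1069.9, 1009.8 and 1042. Control replicate 2 again stood highest of the controls, and the libraries labelled Gata4LKO lay close together above it (log2 fold change 0.47, limma adjusted p = 0.116).

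Plxnb2 had normalised read counts of 9953, 10346 and 9726 against 11215, 11188 and 10445. The gap between the groups was narrow, and the log2 fold change was 0.13 ± 0.07 (SE). Plxnb1 had 1278, 2942 and 2255 against 1756, 1994 and 2142, so its controls lay on both sides of the other group, and its log2 fold change of -0.06 turned positive without Control replicate 2 (0.21). Of the 8 tested plexins 6 had a positive log2 fold change (48.5% of all genes did), and for 4 of them the groups did not overlap (15.0% of all genes, higher). Plxnb3, under the filter, had 1, 2 and 2 reads against 4, 4 and 5.

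Both neuropilins passed the filter but varied widely between mice. Their pooled within-group SD on the log2 scale stood at percentile 94.4 (Nrp1) and 97.2 (Nrp2) among genes of like level. Nrp2, a coreceptor of Sema3F and of the lymphatic growth factor VEGF-C, had normalised read counts of 436, 332 and 248 in control livers against 1098, 551 and 626 in those labelled Gata4LKO. The groups did not overlap, and Gata4LKO replicate 1 stood far above the other two. The means were 339 ± 94.5 and 758 ± 296 (SD, n = 3 each), a log2 fold change of 1.13 ± 0.29 (SE, limma adjusted p = 0.0826, DESeq2 adjusted p = 0.00152). Nrp1, the coreceptor of Sema3A and VEGF-A, had 2086, 1463 and 1501 against 1756, 2074 and 2728, and its groups overlapped (log2 fold change 0.37). Of the 7 class 3 semaphorins, the secreted ligands of the neuropilins, 4 passed the filter. Sema3f was the one whose groups did not overlap, at 186, 185 and 216 against 253, 229.9 and 228 normalised reads. Among all genes tested 15.0% were higher without overlap.

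Among the ephrins, Efna5, a lipid-anchored ligand of A-type Eph receptors, had normalised read counts of 231, 240.0 and 199 against 301, 323 and 343. The groups did not overlap and both were narrow, with a log2 fold change of 0.53 ± 0.12 (SE, limma adjusted p = 0.0657). Efnb1, a transmembrane ephrin, had 559, 525 and 534 against 618, 570.2 and 753, also without overlap (log2 fold change 0.25, limma adjusted p = 0.246). Efna1, the highest ephrin, overlapped, with 849.7, 1172 and 702 against 884, 652 and 717. The other 4 of the 7 ephrins were Efnb2, whose groups overlapped, and 3 under the filter.

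Of the 5 EphA receptors measured, all tested, Epha3, Epha4 and Epha7 were higher in every library labelled Gata4LKO, where 15.0% of all genes tested were. Epha1 was lower in every one, where 13.4% of all genes were, and Epha2 overlapped. Epha3 and Epha4 rested on low counts, 10 to 53 and 5 to 22 reads in a library. Epha7 had normalised read counts of 36.0, 73.8 and 43.9 against 111.5, 108.4 and 103.9. Control replicate 2 was the highest control, and the libraries labelled Gata4LKO were nearly equal. The log2 fold change was 1.13 ± 0.27 (SE, limma adjusted p = 0.0727). Epha1 had 1803, 1831 and 1766 against 1327, 1571 and 1288, which left a clear gap (log2 fold change -0.37, SE 0.09, limma adjusted p = 0.0722, DESeq2 adjusted p = 0.0193). Its exons share 236 bases, 6.01% of their length, with Zyx on the opposite strand, and since the strand setting of the counting is not given, reads of Zyx in that stretch could have been assigned to it.

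Epha2 had 292, 366 and 539.9 normalised reads against 510.4, 706 and 653, and Control replicate 3 reached into the range of the other group (log2 fold change 0.67, limma adjusted p = 0.139). Ephb4 had 899, 944 and 1160.1 against 902, 778 and 747, which overlapped at its edges (log2 fold change -0.30, limma adjusted p = 0.194). Of the 5 EphB receptors 3 were tested, and Ephb3 was the one whose groups did not overlap, where 15.0% of all genes were higher without overlap. Ephb3 had 3 to 10 reads in the controls and 11 to 29 in the libraries labelled Gata4LKO.

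All 4 Robos passed the filter and none of the 3 Slits did, though the lowest Robo had just 11 to 31 reads in a library. Slit1, Slit2 and Slit3 had 1 to 11 reads in a library, and their groups overlapped. Robo1, a Slit receptor (mm10 chromosome 16, plus strand, 72308306 to 73046095), had normalised read counts of 169.7, 48.8 and 28.0 in control livers against 705, 423 and 287. The groups did not overlap, but the controls were scattered, with an SD of 1.31 on the log2 scale, the largest control SD of the 45 tested members. Its log2 fold change was 2.82 ± 0.62 (SE), the largest of the 45, and did not pass with limma (adjusted p = 0.0648), while it did with DESeq2 (adjusted p = 0.0264). Without Control replicate 1 it was 3.54 and passed (adjusted p = 0.0243), and over the 17 alternatives it ran from 2.26 to 3.54. With merged exons as length, Robo1 made up 11.0% ± 8.84 of the Robo sum per kilobase in the controls. In the libraries labelled Gata4LKO it made up 31.3% ± 7.91 (SD, n = 3 each). Both shares rest on that choice of length.

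Robo4, a Robo of vascular endothelium, had 183, 140.3 and 188 normalised reads against 314, 209.8 and 282, with no overlap (log2 fold change 0.65, SE 0.19, limma adjusted p = 0.108). Robo2 had 38.1, 84.2 and 57.0 against 131.9, 110.4 and 81.2, and Control replicate 2 reached above the lowest library of the other group (log2 fold change 0.89, limma adjusted p = 0.156). All 4 Robos had a positive log2 fold change, where 48.5% of all genes tested did. The groups of Robo1 and Robo4 did not overlap, where 15.0% of all genes tested were higher without overlap.

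Ntn1, a secreted laminin-related netrin, had normalised read counts of 179, 399 and 167 against 474, 468 and 485. Control replicate 2 lay close below the other group, and the remaining controls lay far below it. The log2 fold change was 1.05 ± 0.31 (SE, limma adjusted p = 0.106), and it was 1.45 and passed without Control replicate 2. Ntn4, a netrin of basement membranes, overlapped, with 236, 228 and 141 against 221, 272 and 314. Unc5b, a netrin receptor known from endothelium, had 129.6, 167 and 217 against 383, 219.8 and 309. The lowest library labelled Gata4LKO lay just above the highest control (log2 fold change 0.82, SE 0.25, limma adjusted p = 0.117). Unc5a overlapped, with 37.0, 58.2 and 18.7 against 52.2, 54.2 and 80.3, and Unc5c had 3 reads in 1 library of each group and 0 in the others.

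**Figure D3:**
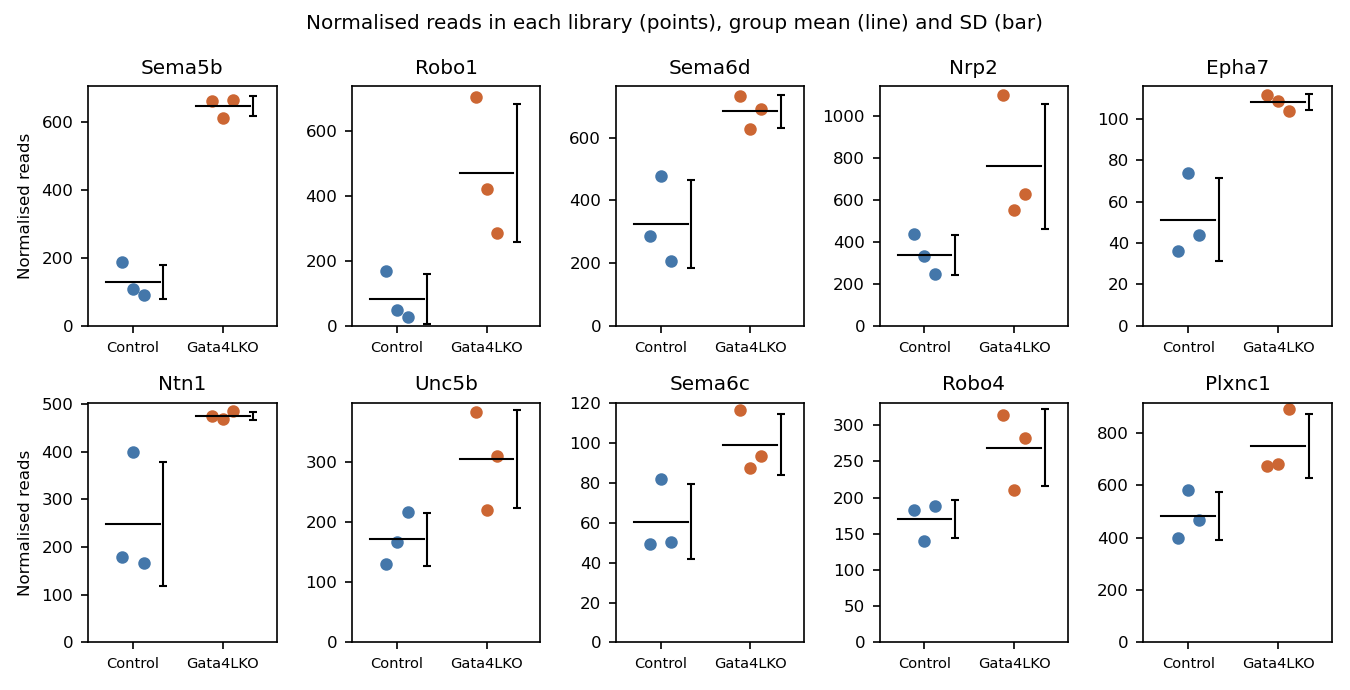
Normalised reads in each library for the 10 members with the largest log2 fold changes among those with a mean of at least 50 and groups that do not overlap, with the group mean as a line and the SD as a bar. For each gene all 3 orange points (labelled Gata4LKO) lie above all 3 blue points (Control), and the scatter among the controls is wide for Robo1, Sema6d and Ntn1.

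Genes that act with these families but lie outside them were counted from a list of 67 coreceptors, ligands and signalling partners, of which 62 were measured and 55 tested. Of the 55, 1 rose and 1 fell (limma adjusted p under 0.05), again where 2.06% of all genes passed. Rnd2, from the signalling partners of plexins, fell from 252, 244 and 286 to 82.9, 24.1 and 35.9 normalised reads (log2 fold change -2.61, SE 0.40, adjusted p = 0.0285). It missed the threshold in 4 of 17 alternatives: without the intensity trend, and without Control replicate 1 (-2.64), Control replicate 3 (-2.55) or Gata4LKO replicate 3 (-2.51). Kdr, the main VEGF receptor of endothelium and a partner of neuropilins, rose from 815, 942 and 922 to 1379.9, 1193 and 1580.3 (log2 fold change 0.63, SE 0.12, adjusted p = 0.0447). Kdr is also counted among the endothelial markers below. It missed the threshold without the trend, and without Control replicate 1 (0.56), Control replicate 3 (0.65), Gata4LKO replicate 1 (0.62) or Gata4LKO replicate 3 (0.52). For 13 of the 55 the groups did not overlap with the libraries labelled Gata4LKO higher, and for 5 with them lower, where the shares over all genes tested were 15.0% and 13.4%. The median log2 fold change of the 55 was 0.08, with 38 positive and 17 negative, where 48.5% of all genes were positive.

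Markers of 3 other liver cell types were, like many of the members, higher in the libraries labelled Gata4LKO. The adipose sum and the nerve and glial sum were also higher in each of these libraries, as given further on. In bulk tissue, a change in the number of cells of a type and a change in RNA per cell cannot be told apart. The marker lists were chosen with earlier results of these data known, so their counts are a description. Over all genes tested, 15.0% were higher without overlap, 13.4% were lower without overlap and 2.06% passed. All 12 of 12 endothelial markers were higher in every library labelled Gata4LKO and 5 passed (Pecam1, Cdh5, Clec4g, Kdr and Gpr182), and their summed level was 1199 to 1392 normalised reads per kilobase in the controls against 1859 to 2340. For stellate cells and fibroblasts 9 of 12 markers did not overlap and were higher, with a lowest limma adjusted p of 0.0798, and the sum was 933 to 2476 against 2831 to 3295. Kupffer cell and macrophage markers gave 8 of 10, a lowest limma adjusted p of 0.0757, and sums of 1508 to 3513 against 4067 to 8615. None of these 3 lists had a marker at 0 in every library. Of the 9 hepatocyte markers found, 4 were lower in every library labelled Gata4LKO (Alb, Apoa1, Ttr and Serpina1c) and Serpina1c passed. The groups overlapped for Cps1, Hnf4a, Fgb, Asgr1 and Apob, and Apob had a positive log2 fold change (0.24).

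Cholangiocyte marker sums overlapped, at 606 to 781 against 468 to 704, as did those of lymphocytes, at 30.5 to 79.5 against 66.3 to 91.3. Mesothelial and vascular smooth muscle sums overlapped too. Nerve and glial markers, with 6 of 8 genes found, summed to 20.2 to 22.6 against 22.7 to 23.6 normalised reads per kilobase, higher by a narrow gap. The neuronal Tubb3 had 0 reads in all controls and at most 1 read in a library. The 4 adipose markers summed to 38.2 to 57.4 against 74.6 to 210.1, also higher without overlap, and of these Adipoq and Plin1 were at or near 0 in every library. The part of the marker shifts in the members' values was not tested.

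The members varied more between mice than most genes of like level. The pooled within-group SD on the log2 scale, which does not use the difference between groups, exceeded the median of the genes in the same twentieth of the expression range for 37 of the 45 tested members. The median member stood at percentile 79.3, and 13 members stood above percentile 90. The control group had the larger SD for 34 of 45 members (75.6%, where 56.0% of all genes tested did). Control replicate 2 was the highest control for 25 members (55.6%, where 36.7% of all genes tested did), and it also had the highest stellate sum of the controls, 2476 against 1159 and 933, and the highest Kupffer sum, 3513 against 2446 and 1508. Gata4LKO replicate 1 was the highest of its group for 24 members (53.3%, where 39.7% did) and had the highest Kupffer sum of all 6 libraries, 8615. Relative to the control mean, the median member lay at -0.04, 0.22 and -0.11 on the log2 scale in the controls and at 0.37, 0.39 and 0.50 in the libraries labelled Gata4LKO. Without Control replicate 2 the number of members that passed was 9 (Epha3, Epha7, Ntn1, Plxnc1, Plxnd1, Sema3d, Sema5b, Sema6c and Sema6d), where 5.51% of all genes passed. Without Control replicate 1 it was 2, Robo1 and Sema5b (0.994% of all genes), and without Gata4LKO replicate 3 it was 0 (0.188%). With library sums made equal 3 members passed (3.18%), and with limma's variance untied from expression level 0 did (0.174%).

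**Figure D4:**
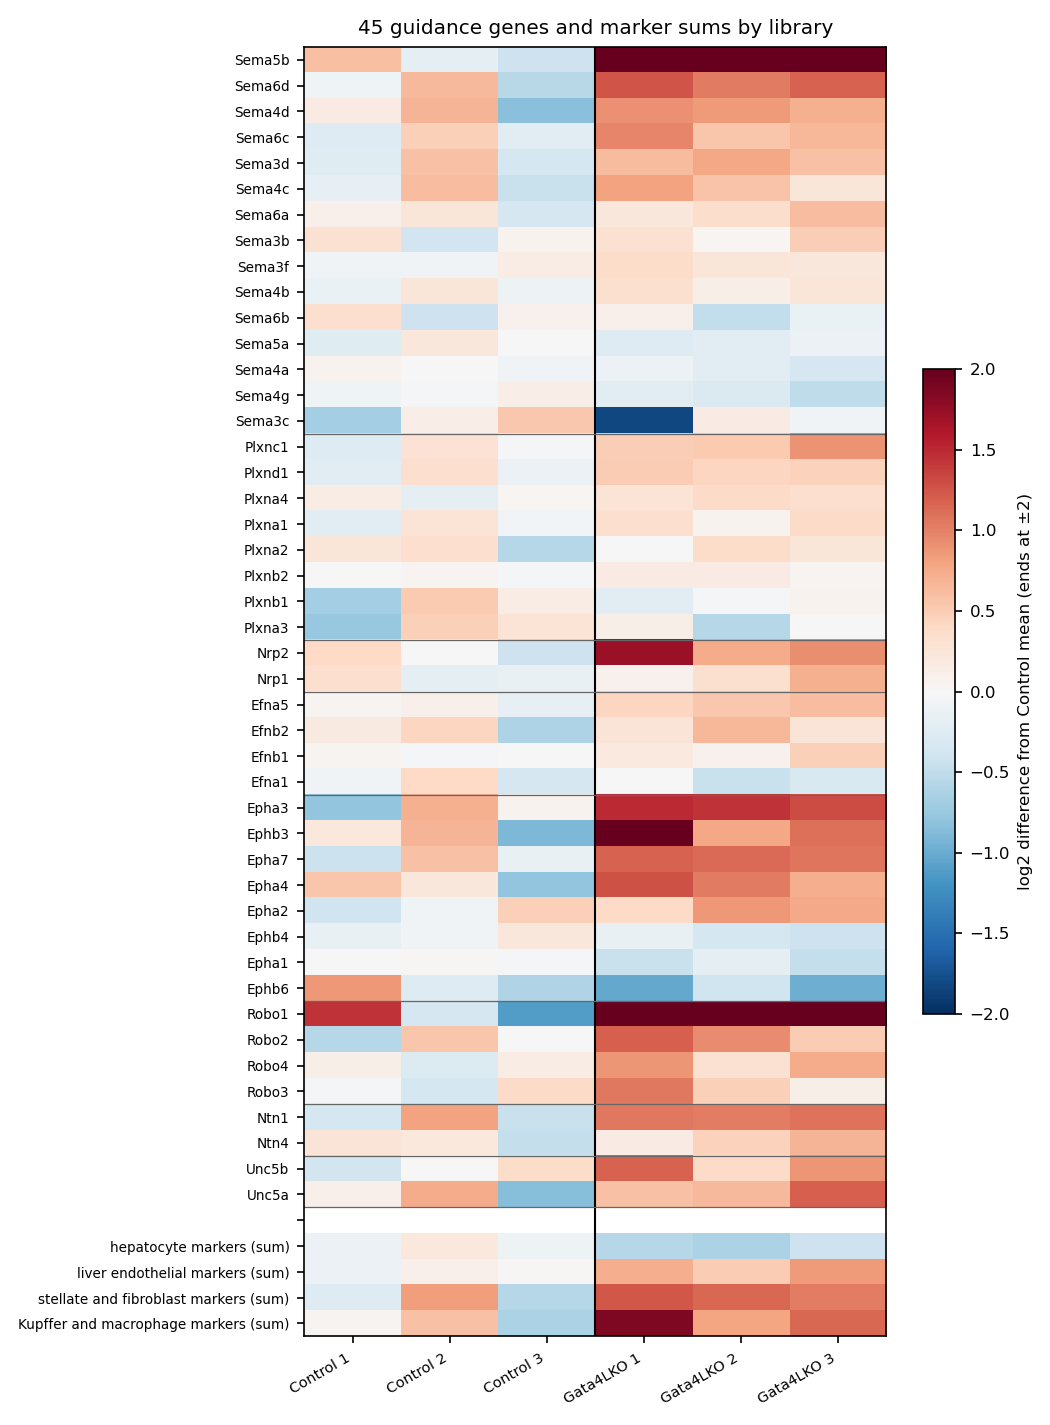
Log2 difference from the control mean for the 45 tested members, by family, and for the summed level of 4 marker lists (bottom rows), in each of the 6 libraries, with red for higher and blue for lower and the colours ending at ±2. Control 2 is red for many members and for the stellate and Kupffer sums, and the right-hand columns are mostly red except for rows such as Sema4g, Epha1 and the hepatocyte sum.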

How the data were processed

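RNA of frozen liver was extracted with TRIzol and RNeasy columns and made into stranded KAPA libraries after mRNA capture, per the labels' protocols. FastQC, STAR 2.6.0c, DESeq2 and the build mm10 are named in the submitters' processing notes. For the counting program, strand setting and annotation, the sources used here name none. The deposited signal is a normalised read count per gene, and every value was a whole multiple of 1 step per library (100% of values came within 0.1), so whole reads could be recovered. The authors' deposited table of their own comparison holds log2 fold changes with standard errors and p-values.

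Values were tested as log2(value + 1) with limma 3.58.1 in R 4.3.3 (intensity trend, two-sided, no covariate, Benjamini-Hochberg threshold 0.05) over the 14385 genes with a mean of at least 10. Fold changes on this scale understate changes of low genes. Replicates are separate mice, numbered in accession order. Exon lengths and coordinates came from GENCODE M21 on the same assembly, which holds 24480 of the 24501 gene identifiers, and promoter windows from RefSeq. The members, marker genes and pathway list were chosen with earlier results of these data known. Genes named with values were members past the threshold, the 10 largest log2 fold changes among members with a mean of at least 50 and groups that do not overlap, the 3 highest per kilobase in each family, Sema5a, Plxna1 and Plxna3, pathway genes past the threshold, and Gata4. Epha3, Epha4, Ephb3, Ephb6, Plxnb3, Sema3d, Sema3f, Sema4d, Sema7a and Efnb2 fall outside this rule and were named after their values were seen.

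Alternatives were pseudocounts of 0.5 and 5, TMM factors, quantile normalisation and equal library sums, no filter or a minimum mean of 50, robust variance, no intensity trend, edgeR 4.0.16 and DESeq2 1.42.0 on the recovered reads, each library left out, and the longest transcript as gene length. The fits were also run on simulated counts, drawn independently for each gene and library, as a check of the code. Such counts hold no shift shared by many genes of a library, and no result here rests on them. The 3 mice a group limit the precision of every value, and low counts add counting error, in tested members of low level too.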

Additional observations from a re-analysis of the deposited data

How the results depend on the processing

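Over all genes tested 296 passed, and the count was 458 with equal library sums (328 of them higher, against 162 of 296), 25 without the intensity trend, 1364 with DESeq2 on the recovered reads and 27 to 792 when 1 library was left out. Of the members 1 passed, and the count was 3 with equal library sums (Efna5, Sema5b and Sema6d), 0 without the trend, 13 with DESeq2 and 0 to 9 when 1 library was left out. Of the other pathway genes 2 passed, and the count was 4 with equal library sums, 0 without the trend, 7 with DESeq2 and 0 to 6 when 1 library was left out. For the members the count was 0 without the trend and without Gata4LKO replicate 3. In the main setting, where 1 member passed, limma gave 22 of the 45 tested members an unadjusted p under 0.05. The same held for 3227 of all 14385 genes tested (22.4%), a smaller share. With edgeR on the recovered reads 1 member was called. The cause of these differences between settings was not tested.

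The log2 fold change of Plxnb1, -0.06, ran from -0.40 to 0.21 when 1 library was left out and was above 0 without Control replicate 2, Control replicate 3 or Gata4LKO replicate 1. That of Plxna3, -0.15, ran from -0.53 to 0.087 and was above 0 without Control replicate 2 or Gata4LKO replicate 2. The other 30 genes of the naming rule that were tested kept their direction under every alternative run, and genes named outside the rule were not followed across alternatives one by one. No paired analysis was possible because the replicate numbers were given in accession order and pair no mice.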
